A study of Rattus norvegicus with 39 samples.

Results

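The cerebral cortex of calorie-restricted (CR) rats was compared between 6 and 12 months of age. The comparison rests on 6 of the 39 libraries of the study, the 3 labelled as CR at 6 months (6 m CR, pools 10, 11 and 12) and the 3 labelled as CR at 12 months (12 m CR, pools 13, 14 and 15). Each library is RNA of 2 male BN rats (SubstrainBN/SsNOlaHSD) pooled before ribosomal RNA was removed. The rats had been fed freely until 2 months of age and were then housed singly and given 55% of the food that control rats ate each day, so that both ages had been restricted since 2 months and differ in age and in time on the diet together. The 3 pools of 6 m AL (pools 1, 2 and 3) and the 3 of 12 m AL (pools 4, 5 and 6), from singly housed rats fed ad libitum (AL), served as the same age comparison without restriction. A p-value here is set against the spread between pools, and pooling 2 rats evens out part of what differs from rat to rat.

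Restriction of calories without malnutrition extends lifespan in many rodent strains. Between young adulthood and middle age the cortex of a rodent keeps its neurons, while expression of immune genes, of genes that neuronal activity switches on and of synaptic genes is known to shift with age. In a dissected piece of tissue, RNA of neighbouring regions, of the meninges or of blood can also enter a pool, and in bulk RNA a smaller number of cells of a type and less RNA per cell cannot be told apart.

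The 6 m CR libraries held 2661799 to 4270620 reads on genes and the 12 m CR libraries 3230145 to 4078398, so that 1 CPM, the count scaled to 1000000 reads on genes of the same library, stood for about 3 to 4 reads. The libraries carried the markers of cortex. The summed level of the 14 tested genes of cortical excitatory neurons was 1022, 1262 and 961 CPM in pools 10, 11 and 12. In pools 13, 14 and 15 it was 1328, 1280 and 1190 CPM. This sum includes Slc17a6, a gene of thalamic neurons described below, at 215, 40.3 and 129 CPM and then at 9.60, 32.6 and 122 CPM. Gad1, which makes the transmitter of inhibitory neurons, was between 152 and 267 CPM in every pool. The share of reads that did not align was 40.4% ± 0.307 (SD, n = 3) at 6 months and 41.8% ± 1.17 (SD, n = 3) at 12 months, and the pools did not overlap (two-sided exact permutation test, p = 0.1, the smallest that 3 pools against 3 can give). Age cannot be told apart from whatever moved that share. Over 10069 genes with a mean of at least 10 CPM, the median absolute log2 difference was 0.23 to 0.36 between pools of 6 m CR, the larger values being those of pool 12, and 0.19 to 0.23 between pools of 12 m CR. Pool 11 differed from the 12 m CR pools by 0.16 to 0.19 and from the other pools of its own group by 0.23 and 0.36, and pool 10 was also nearer to pool 15 (0.22) than to either pool of its own age. Pool 12 stood apart in ribosomal RNA left after depletion, with 33097 CPM of Rn28s, the 28S ribosomal RNA, against 2531 and 7793 CPM in pools 11 and 10 and 3438 to 4791 CPM at 12 months. CPM of pool 12 read lower than on the scale of the test, where the TMM factor that enters the fold changes was 0.844 in pool 12 and 1.02 to 1.06 in the other 5 pools. With CPM divided by these factors, an alternative chosen after the values were seen, the difference between pools was 0.21 to 0.25 within 6 m CR, and pool 11 still lay nearer to the 12 m CR pools (0.16 to 0.19).

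Few genes were called between the ages. Of 17230 genes tested with edgeR's quasi-likelihood test, 5 had a Benjamini-Hochberg adjusted p under 0.05 (0.029%) and are called differentially expressed (DE). Of the DE genes, 4 were higher at 12 months (0.0232% of the genes tested) and 1 was lower (0.0058%). At an unadjusted p under 0.05 there were 1163 genes (6.75%), 589 higher (3.42%) and 574 lower (3.33%). The median log2 fold change of all genes tested, 12 m CR over 6 m CR throughout, was 0.0032.

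The gene that fell was Cpne7 (ENSRNOG00000015397), which encodes copine 7, a member of a family of calcium-dependent membrane-binding proteins. Cpne7 was at 57.2, 56.7 and 54.5 CPM in pools 10, 11 and 12 and at 24.1, 25.01 and 32.96 CPM in pools 13, 14 and 15. In CPM the pools of each age lay close together, and the highest pool of 12 months was well under the lowest of 6 months. With CPM divided by the TMM factors, the pools of 6 months lay further apart, at 55.5, 53.6 and 64.5. Those of 12 months were then at 23.7, 24.5 and 31.6, still without overlap. The mean went from 56.1 ± 1.46 CPM (SD, n = 3) to 27.4 ± 4.86 CPM (SD, n = 3), a log2 fold change of −1.11 (SE 0.171, edgeR adjusted p = 0.0208). In the fits that left out 1 pool the log2 fold change stayed between −1.26 and −1.04, and the call held in 3 of 6 fits. It was lost without pool 12, 13 or 14, with adjusted p-values of 0.131, 0.221 and 0.29.

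The level of Cpne7 in the other groups is given for scale. In 6 m AL it was at 23.5, 25.3 and 35.8 CPM, all below every pool of 6 m CR, and in 12 m AL at 44.6, 16.2 and 24.5 CPM. In 28 m CR it was at 17.1, 46.5 and 35.6 CPM, so that the level at 12 months lay within the range of the oldest restricted rats. The one group with a mean near that of 6 m CR was 28 m AL, at 64.6, 58.9 and 38.9 CPM. The change from 6 to 12 months in AL was 0.21 on the log2 scale (SE 0.313, adjusted p = 1). The difference between the CR and the AL change of Cpne7, tested as an interaction of age and diet, was −1.37 (SE 0.367, unadjusted p = 0.00114) and did not pass edgeR's adjusted threshold (adjusted p = 0.519).

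**Figure D1:**
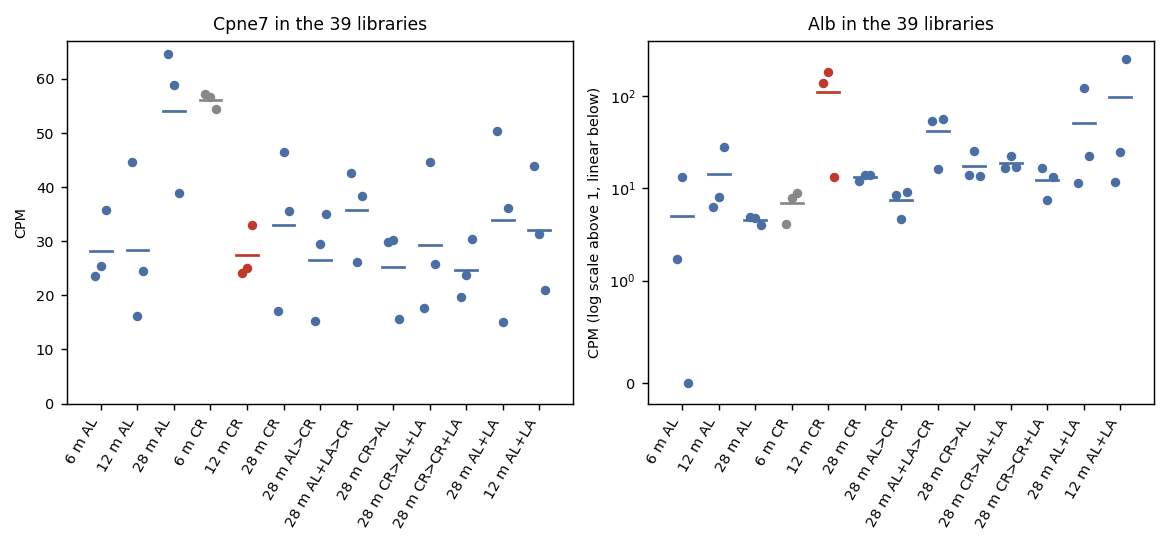
Level of Cpne7 and of Alb in CPM in the 39 libraries by group, with 1 point per pool and a line at the mean of the group. The axis of Alb is logarithmic above 1 CPM and linear below it. The 3 pools of 6 m CR sit between 54.5 and 57.2 CPM of Cpne7 and the 3 of 12 m CR between 24.1 and 32.96 CPM, while Alb is above 100 CPM in pools 13 and 14 and at 13.2 CPM in pool 15.

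The only other DE gene with a name was Alb (ENSRNOG00000002911), which encodes serum albumin, the main protein of blood plasma, made in the liver. Alb was at 4.09, 7.96 and 9.02 CPM in pools 10, 11 and 12 and at 141, 183 and 13.2 CPM in pools 13, 14 and 15. The rise was therefore carried by pools 13 and 14, and pool 15 was little above the highest pool of 6 months. The mean went from 7.02 ± 2.59 CPM (SD, n = 3) to 113 ± 88.6 CPM (SD, n = 3), a log2 fold change of 3.93 (SE 0.61, edgeR adjusted p = 0.0208). Without pools 13 and 14 it was 0.81 (SE 0.465, adjusted p = 1), an alternative chosen after the values were seen. In 28 m CR Alb was at 12.1, 13.99 and 14.1 CPM, near pool 15 and above every pool of 6 m CR.

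The remaining 3 DE genes had no name in the tables used and shared the pattern of Alb. ENSRNOG00000005542 was at 0, 2.11 and 0.376 CPM at 6 months and at 33.4, 47.1 and 3.78 CPM at 12 months (adjusted p = 0.0208). ENSRNOG00000006709 had no read in 6 m CR and 52, 54 and 7 reads in pools 13, 14 and 15, or 16.1, 13.2 and 1.89 CPM, which is at least 34.2-fold higher against a floor of 3 reads over the 3 pools of 6 months (adjusted p = 0.0208). In each of these genes pool 15 held a small part of the level of pools 13 and 14.

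Genes high in pools 13 and 14 were therefore collected after the values were seen, as a description with no test. With at least 2 CPM in both pools and at least 4 times the highest pool of 6 m CR, there were 40 such genes, of which Alb alone had a name. Their summed level was 16.7, 22.7 and 17.7 CPM in pools 10, 11 and 12 and 462, 523 and 47.0 CPM in pools 13, 14 and 15. The set held all 4 DE genes that were higher at 12 months. The set was chosen on pools 13 and 14, so its calls without single pools follow in part from that choice. Without pool 15, 36 of the 40 were DE, among 83 DE genes of all 17230 tested. Of the 40, 4 were DE without pool 10 and 18 without pool 11, where 13 and 198 genes in all were DE. Without pool 12, 13 or 14 no gene was DE, in the set or outside it. Another 18 genes, none of them named, were at 2 CPM or more in pool 11 and at least 8 times the highest 12 m CR pool, with a summed level of 166 CPM in pool 11, 7.15 and 25.5 CPM in pools 10 and 12 and 1.55 to 2.16 CPM at 12 months. None of these was DE. What pools 13 and 14 share with each other was not tested.

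**Figure D2:**
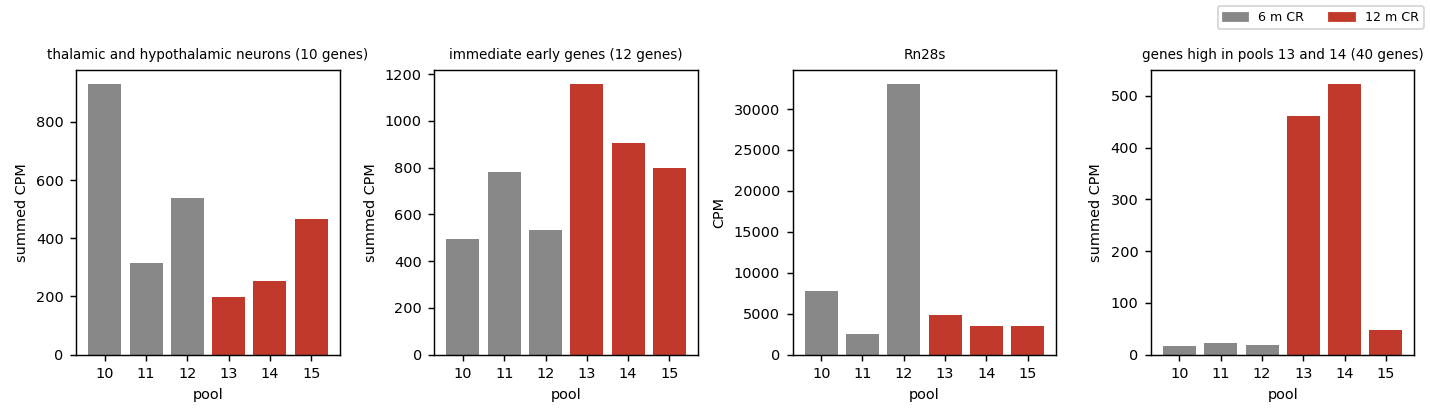
Summed CPM in each of the 6 CR pools of the thalamic and hypothalamic list, of the immediate early list and of the 40 genes chosen as high in pools 13 and 14, with the level of Rn28s in CPM, as bars from 0. Pool 12 is far above the others in Rn28s, pools 10 and 12 are highest in thalamic genes, and the 3 pools of 12 m CR are highest in immediate early genes.

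Named genes below the threshold are described next where the pools of the ages did not overlap. Among the 1669 genes with a name, 115 had all 3 pools of 12 m CR above all pools of 6 m CR (6.89%) and 46 had them below (2.76%), near the 6.33% and 3.15% of all genes tested, so that the counts are no result about the named genes. With CPM divided by the TMM factors, 118 named genes (7.07%) were apart upwards and 77 (4.61%) downwards, against 5.84% and 4.92% of all genes, and the higher ones were 54.3% of all genes apart in place of 66.8%. Names came from tables of genes that the study had called in some comparison of these libraries, so the named genes were not chosen apart from the data, and an unadjusted p under 0.05 was met by 11.9% of them against 6.75% of all genes.

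Sparc, a secreted glycoprotein that binds collagen and is made in brain by microglia and vessel cells, was lower in every pool of 12 m CR. It was at 862, 616 and 615 CPM in pools 10, 11 and 12 and at 367, 420 and 525 CPM in pools 13, 14 and 15. The log2 fold change was −0.75 (SE 0.156, adjusted p = 0.102 with edgeR's quasi-likelihood test). DESeq2 gave an adjusted p of 0.00847 for it, so that the call of Sparc turned on the tool.

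Ryr3, a calcium release channel of the endoplasmic reticulum, was at 83.5, 96.2 and 64.6 CPM at 6 months and at 48.0, 59.6 and 54.8 CPM at 12 months (log2 fold change −0.66, SE 0.149, edgeR adjusted p = 0.163). Nrsn2, a neuronal membrane protein of small vesicles, was at 61.7, 48.2 and 45.5 CPM and then at 26.9, 36.8 and 32.7 CPM (−0.75, SE 0.173, edgeR adjusted p = 0.163). Both were lower in all 3 pools of 12 months. Itpr1, the other tested release channel of that membrane, had the opposite sign (0.42, SE 0.141, edgeR adjusted p = 0.505). Fibcd1, which marks pyramidal neurons of the hippocampus, was at 9.54, 11.2 and 14.3 CPM and then at 3.41, 5.15 and 5.40 CPM (−1.39, SE 0.334, edgeR adjusted p = 0.205). Ptpro, a receptor tyrosine phosphatase, held 49.1, 48.5 and 47.3 CPM at 6 months and 23.5, 31.9 and 37.8 CPM at 12 months (−0.71, edgeR adjusted p = 0.273). The other lower genes without overlap were Hn1l, Rhbdl3, Il16, Tanc1, Sncg and Mlycd, with log2 fold changes of −0.79, −0.65, −0.95, −0.58, −0.87 and −0.65.

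Some of the genes higher at 12 months without overlap are known from cortical neurons. Lamp5, a membrane protein of cortical neurons of upper layers and of a class of interneurons, was at 83.8, 182 and 95.4 CPM at 6 months and at 275, 237 and 213 CPM at 12 months. Pool 11 was the nearest of the young pools to the older ones. The log2 fold change was 0.93 (SE 0.195, edgeR adjusted p = 0.102), with a DESeq2 adjusted p of 0.0216. Satb1, a chromatin organiser needed by interneurons, was at 44.3, 70.0 and 45.1 CPM and then at 109, 102 and 81.9 CPM (0.80, SE 0.171, edgeR adjusted p = 0.109). Kcns1, a modifier subunit of voltage-gated potassium channels, was at 2.73, 5.85 and 1.13 CPM and then at 13.9, 10.3 and 12.7 CPM (1.76, SE 0.378, edgeR adjusted p = 0.109). In each of the last pair pool 11 was again the highest of 6 months.

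C3, the central component of complement, was at 32.4, 20.8 and 17.7 CPM at 6 months and at 57.0, 47.8 and 39.7 CPM at 12 months (log2 fold change 0.97, SE 0.203, edgeR adjusted p = 0.102). All 3 pools of the older rats were above the younger ones. Yeats4, a reader subunit of chromatin complexes, was at 9.88, 10.8 and 10.1 CPM and then at 22.9, 24.8 and 16.7 CPM (0.99, SE 0.239, edgeR adjusted p = 0.208). Cbln2, a secreted organiser of synapses, Ephx4, an epoxide hydrolase, Dact2, a regulator of Wnt and TGF-β signalling, and Stac2, which binds voltage-gated calcium channels, had log2 fold changes of 0.64, 0.70, 0.85 and 1.22 and likewise did not pass. With CPM divided by the TMM factors, pools of Stac2 overlapped.

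**Figure D3:**
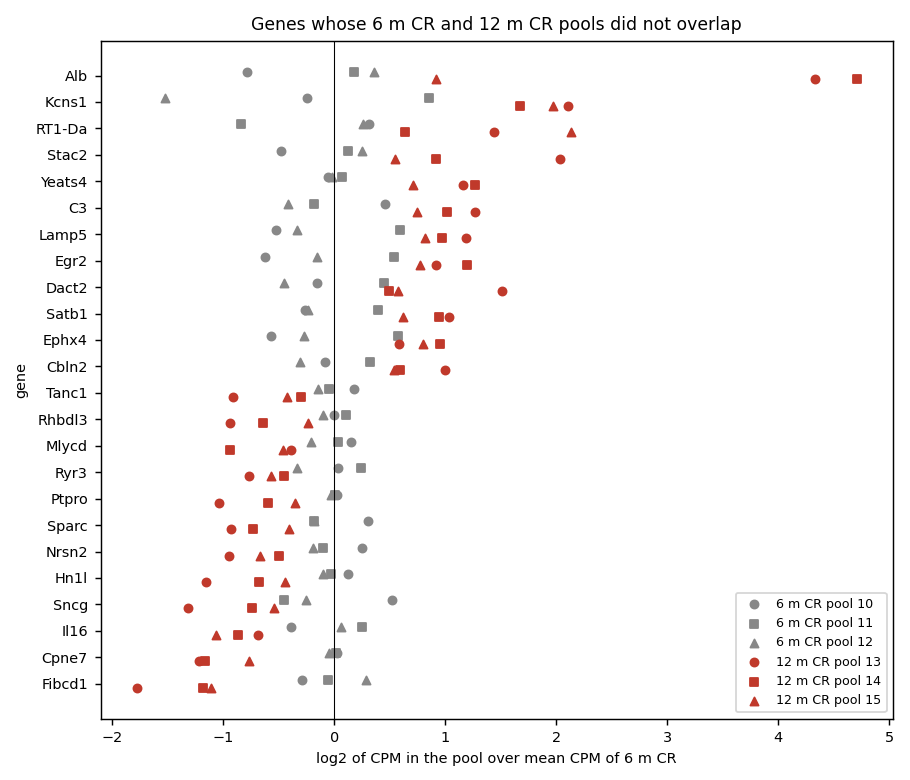
Log2 of the CPM of each pool over the mean CPM of 6 m CR for the 24 named genes, 12 in each direction, with the smallest p among those whose pools did not overlap (grey, 6 m CR, and red, 12 m CR, with 1 symbol per pool). They were chosen for not overlapping. In Alb the red pools spread over more than 3 log2 units, while in Cpne7 both ages are tight in CPM, which carries no TMM factor.

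Gene groups were described by counting their members. Every list below is made of its members with a name, and none of the members passed the adjusted threshold other than Cpne7 and Alb. Among all 1669 named genes 5.93% were higher and 5.99% lower at an unadjusted p under 0.05, and 52.7% had a log2 fold change above 0 (50.6% of all genes), with a median of 0.018.

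Immediate early genes are switched on within minutes by neuronal activity. All 12 tested members were higher at 12 months in the fit, with a median log2 fold change of 0.43, and 5 were so at an unadjusted p under 0.05. Their summed level was 496, 781 and 533 CPM in pools 10, 11 and 12 and 1159, 906 and 800 CPM in pools 13, 14 and 15, without overlap, although pool 11 came close to pool 15. Egr2, a zinc finger transcription factor, was at 17.7, 39.6 and 24.4 CPM and then at 51.4, 62.3 and 46.5 CPM (log2 fold change 0.88, SE 0.218, edgeR adjusted p = 0.233). Its relative Egr1 was at 111, 192 and 107 CPM and then at 245, 254 and 182 CPM, where pool 11 overlapped pool 15 (0.67, SE 0.176, edgeR adjusted p = 0.284). Arc, which shapes the postsynaptic density after activity, was at 139, 304 and 202 CPM and then at 403, 315 and 334 CPM (0.63, SE 0.195, edgeR adjusted p = 0.442). Btg2, a growth-arrest gene of the same list, was at 125 CPM in pool 13 alone and between 14.05 and 30.0 CPM in the other 5 pools, and its log2 fold change turned from 1.22 to −0.46 without pool 13.

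The median of the 12 immediate early genes stayed above 0 whichever pool was left out, from 0.16 to 0.59. Calls turned on the pool left out. Without pool 11, the pool of 6 m CR highest in them, Egr1, Egr2 and Arc were DE. That fit called 198 of the 17230 genes tested and 66 of the 1669 named ones. It is given as a description, since the pool left out was the one nearest to the other age. Without pool 15, Egr1 was the 1 member that was DE (log2 fold change 0.81, edgeR adjusted p = 0.0427), among 83 DE genes in all. Without pool 10, Egr2 was at 0.63 and Arc at 0.37 (adjusted p = 0.657 and 0.975 with edgeR). No member was DE without pool 10, where 13 genes were, or without pool 12, 13 or 14, where no gene was. In 28 m CR the summed level was between 455 and 777 CPM, under that of every 12 m CR pool. In AL 9 of the 12 were below 0, with a median log2 fold change of −0.36, the summed level went from between 665 and 855 CPM at 6 months to between 274 and 706 CPM at 12 months.

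The promoter of Egr2 is shown as the member with the smallest p of its list. It holds a CArG box, the site of serum response factor through which activity is known to switch on immediate early genes, marked in capitals. The stretch is the 250 bases before the start of the gene in RefSeq on GRCr8, chr20:21054442-21054691, minus strand. A CArG box on either strand was in 1.5% of the 33469 promoters of this length, and of the 9 tested immediate early genes with a promoter in the table it was in that of Egr1 and Egr2.
Egr2: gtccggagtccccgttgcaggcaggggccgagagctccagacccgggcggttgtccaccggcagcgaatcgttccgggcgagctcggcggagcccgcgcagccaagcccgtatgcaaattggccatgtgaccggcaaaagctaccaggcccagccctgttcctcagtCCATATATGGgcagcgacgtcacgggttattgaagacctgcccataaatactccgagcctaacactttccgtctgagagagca

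Genes of MHC class II, which present antigen on microglia and other myeloid cells, were at low levels in CR cortex, and none passed the threshold. RT1-Da, a class II alpha chain, was at 7.84, 3.51 and 7.51 CPM in 6 m CR and at 17.03, 9.81 and 27.6 CPM in 12 m CR (log2 fold change 1.49, SE 0.374, edgeR adjusted p = 0.255). Its partner chain RT1-Db1 was at 5.11, 2.34 and 3.38 CPM and then at 10.8, 4.90 and 16.5 CPM (1.52, SE 0.435, edgeR adjusted p = 0.357). Cd74, the invariant chain that escorts class II molecules, was at 14.3, 10.1 and 16.2 CPM and then at 22.9, 17.9 and 33.8 CPM (0.82, SE 0.269, edgeR adjusted p = 0.498). Pool 15 was the highest in each of these genes and pool 11 the lowest. RT1-Ba, another alpha chain, gave 1.05 (SE 0.331, edgeR adjusted p = 0.442), and 0.62 without pool 15. Its partner chain RT1-Bb was at 0.36, with an unadjusted p of 0.443 in edgeR. Pools of RT1-Db1 and RT1-Ba overlapped between the ages, and so did those of Cd74 with CPM divided by the TMM factors. Reads that mapped to several places were not counted, so levels of the RT1 genes, which have close relatives in the genome, are uncertain.

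Of the 16 tested genes of MHC and interferon response, 14 were above 0 in CR and 5 were so at an unadjusted p under 0.05, with a median of 0.21 (0.063 to 0.36 leaving out 1 pool). Microglial genes as a list did not show it, since of 14 tested none had an unadjusted p under 0.05 and the median was 0.067. In AL the class II genes passed the threshold. RT1-Da went from 8.81, 8.45 and 7.87 CPM in 6 m AL to 51.4, 152 and 66.8 CPM in 12 m AL (log2 fold change 3.37, SE 0.341, edgeR adjusted p = 3.67e-06), and Cd74 from 21.5, 27.8 and 17.1 CPM to 96.2, 144 and 111 CPM (2.44, SE 0.241, edgeR adjusted p = 3.13e-06). The lowest 12 m AL pool of each was above the highest 12 m CR pool. The library of 12 m AL that was highest in both, pool 5, was also the shallowest, with 494091 reads on genes.

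The difference between the 2 diets in that change was −1.89 for RT1-Da (SE 0.583, unadjusted p = 0.00371, edgeR adjusted p = 0.676) and −1.64 for Cd74 (SE 0.375, unadjusted p = 0.000233, edgeR adjusted p = 0.402), and neither passed after adjustment over all genes. In 28 m CR, RT1-Da reached 45.5, 35.1 and 50.8 CPM and Cd74 71.2, 80.4 and 85.7 CPM, above all 6 younger restricted pools. The level in AL did not keep rising with age. The summed level of the MHC and interferon list was 232 to 322 CPM in 6 m AL and 587 to 832 CPM in 12 m AL. In 28 m AL it was 264 to 371 CPM, below the 487 to 493 CPM of 28 m CR.

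The promoters of all 4 tested RT1 class II genes are shown, each as the 250 bases before the start in RefSeq on GRCr8. Their log2 fold changes in AL were between 2.73 and 3.64, while those in CR were between 0.36 and 1.52. Capitals mark CTGATTGG, the core of the Y box that binds NF-Y, a part of the conserved control element of class II genes. On either strand these letters were in 3.19% of the 33469 promoters of this length. The stretches are chr20:4515165-4515414 (plus strand) for RT1-Da, chr20:4560163-4560412 (minus strand) for RT1-Db1, chr20:4576807-4577056 (plus strand) for RT1-Ba and chr20:4604119-4604368 (minus strand) for RT1-Bb, and the box begins 52, 83, 46 and 64 bases before the start. Of the 14 tested genes of this list with a promoter in the table, 5 held these letters, the fifth being RT1-A2, a class I gene.
RT1-Da: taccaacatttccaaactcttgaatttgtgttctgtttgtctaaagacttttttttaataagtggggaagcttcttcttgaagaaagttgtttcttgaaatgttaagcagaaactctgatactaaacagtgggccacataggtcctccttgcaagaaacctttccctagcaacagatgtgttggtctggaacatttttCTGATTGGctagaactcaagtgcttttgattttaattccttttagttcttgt
RT1-Db1: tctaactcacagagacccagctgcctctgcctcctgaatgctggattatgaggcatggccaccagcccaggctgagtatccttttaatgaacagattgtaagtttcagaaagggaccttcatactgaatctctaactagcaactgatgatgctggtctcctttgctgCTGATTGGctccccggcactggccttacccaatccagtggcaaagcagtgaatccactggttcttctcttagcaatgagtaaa
RT1-Ba: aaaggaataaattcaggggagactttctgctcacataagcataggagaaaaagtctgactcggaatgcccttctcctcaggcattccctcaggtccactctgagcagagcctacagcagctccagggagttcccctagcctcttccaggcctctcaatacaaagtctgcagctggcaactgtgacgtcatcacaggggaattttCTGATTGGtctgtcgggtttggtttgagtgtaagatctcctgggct
RT1-Bb: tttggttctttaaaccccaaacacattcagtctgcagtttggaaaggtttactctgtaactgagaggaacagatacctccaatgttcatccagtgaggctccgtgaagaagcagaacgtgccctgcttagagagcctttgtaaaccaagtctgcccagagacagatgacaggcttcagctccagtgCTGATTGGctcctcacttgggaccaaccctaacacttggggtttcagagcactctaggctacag

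Markers of thalamus and hypothalamus, regions that lie beneath the cortex, had lower values at 12 months, none past the adjusted threshold. All 10 tested members were below 0, 8 of them at an unadjusted p under 0.05, with a median log2 fold change of −1.03, which ran from −1.38 to −0.63 leaving out 1 pool. Prkcd, a protein kinase C strong in thalamic relay neurons, was at 198, 36.3 and 80.4 CPM in pools 10, 11 and 12 and at 20.7, 32.9 and 54.3 CPM in pools 13, 14 and 15 (−1.60, SE 0.395, edgeR adjusted p = 0.233), and its log2 fold change was −0.83 without pool 10. Slc17a6, the vesicular glutamate transporter of thalamic neurons, was at 215, 40.3 and 129 CPM and then at 9.60, 32.6 and 122 CPM (−1.31, SE 0.539, edgeR adjusted p = 0.642). Calb2, which encodes calretinin and also marks a class of cortical interneurons, was at 47.0, 16.9 and 36.4 CPM and then at 3.71, 8.34 and 22.4 CPM (−1.59, SE 0.414, edgeR adjusted p = 0.284). These genes followed the pool as much as the age, since pools 10, 12 and 15 were high and pools 11, 13 and 14 low in each of the 3.

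The summed level of the 10 was 932, 314 and 538 CPM in 6 m CR and 198, 255 and 468 CPM in 12 m CR, so that pool 11 lay below pool 15. It was between 274 and 610 CPM in 6 m AL and between 342 and 611 CPM in 12 m AL. The number of the 10 that were DE turned on the pool left out. It was 8 without pool 11, the pool of 6 m CR lowest in them, where 198 of all 17230 genes and 66 of the 1669 named ones were DE. Without pool 15, the pool of 12 m CR highest in them, it was 5, where 83 genes and 19 named ones were DE. Each of these pools lay nearest to the other age in the sum, so that leaving it out widened the difference. It was 0 without pool 10, 12, 13 or 14, and without pool 12, 13 or 14 no gene at all was DE. Genes of cerebellar neurons, 14 tested, had 12 below 0, with 5 lower and 1 higher at an unadjusted p under 0.05. Their median was −0.42 (−0.54 to −0.33 leaving out 1 pool). Their summed level was 834, 887 and 677 CPM in 6 m CR and 906, 935 and 818 CPM in 12 m CR. Itpr1, the 1 member higher at that p, was the largest part of this sum. It was at 389, 479 and 293 CPM and then at 586, 567 and 468 CPM, so the sum does not speak for the other members. Of the 4 tested hippocampal genes, Cpne7 and Fibcd1 were lower and the other two had an unadjusted p of 0.05 or above. The summed level of the 4 was 285, 349 and 292 CPM in 6 m CR and 374, 265 and 260 CPM in 12 m CR, so that the ages overlapped. Most of that sum in every pool was Nptxr (log2 fold change 0.088, edgeR unadjusted p = 0.597). The overlap therefore does not speak for Cpne7 and Fibcd1, whose pools did not overlap. Whether the change of Cpne7 goes with RNA of a neighbouring region was not tested.

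Cortical excitatory neurons had 3 genes higher and 2 lower at an unadjusted p under 0.05, of 14 tested. With Lamp5 the higher ones were Lmo4, a transcription cofactor, at 51.8, 104 and 73.6 CPM and then at 132, 132 and 109 CPM (0.62, edgeR adjusted p = 0.431), and Mef2c, a transcription factor of synapse number, at 40.5, 84.5 and 39.8 CPM and then at 128, 77.0 and 80.8 CPM (0.72, edgeR adjusted p = 0.442). The lower ones were Slc17a6, which is also in the thalamic list above, and Pcp4, a calmodulin regulator of deep layers. Pcp4 was at 240, 204 and 154 CPM and then at 90.7, 178 and 148 CPM (−0.58, edgeR adjusted p = 0.442). Of 20 synaptic genes, 5 were higher and 2 lower at that p, with a median of 0.19. Syt1, the calcium sensor of transmitter release, was at 255, 415 and 246 CPM and then at 460, 417 and 412 CPM (0.43, edgeR adjusted p = 0.544). Homer2, a postsynaptic scaffold, was at 11.6, 14.3 and 10.9 CPM and then at 22.9, 17.7 and 19.2 CPM (0.62, edgeR adjusted p = 0.558). In CPM, pool 11 sat with the 12-month pools in Syt1 and Mef2c and apart from them in Homer2.

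Most astrocyte and oligodendrocyte genes had log2 fold changes below 0, none past the adjusted threshold, but their summed levels overlapped between the ages. The astrocyte sum was 2949, 2188 and 1933 CPM in pools 10, 11 and 12 and 2011, 2057 and 2315 CPM in pools 13, 14 and 15. The oligodendrocyte sum was 2423, 1638 and 1336 CPM and then 1428, 1684 and 1698 CPM. Pool 10 was the highest in both sums, and pool 12 lay below every pool of 12 m CR. Of the 11 tested genes of the astrocyte list 10 were below 0 (median −0.18, and −0.24 to −0.040 leaving out 1 pool). At an unadjusted p under 0.05, 2 were lower, and the 1 higher was Hapln1. Agt, angiotensinogen, was at 222, 88.5 and 95.8 CPM and then at 46.4, 57.6 and 105 CPM, high in pool 10 (−1.02, edgeR adjusted p = 0.321), and Hapln1, which links hyaluronan in the matrix around neurons, was at 31.3, 49.9 and 24.04 CPM and then at 52.3, 48.5 and 60.8 CPM (0.54, edgeR adjusted p = 0.522). Gfap, the filament of reactive astrocytes, was at 463, 295 and 262 CPM and then at 273, 253 and 359 CPM, and its log2 fold change of −0.27 was −0.040 without pool 10. Of 12 oligodendrocyte genes 9 were below 0 (median −0.33, and −0.45 to −0.096 leaving out 1 pool) and 4 were lower at that p, among them Tf, transferrin, at 880, 560 and 459 CPM and then at 422, 516 and 592 CPM. Pool 10 was the highest in Agt, Gfap and Tf, as it was in Prkcd and Slc17a6. Choroid plexus genes, 5 tested, were all below 0 (median −0.40, and −0.60 to 0.073 leaving out 1 pool), with Htr2c, a serotonin receptor, at 293, 159 and 158 CPM and then at 55.1, 116 and 173 CPM (−0.89, edgeR adjusted p = 0.425).

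Of 7 tested clock genes 6 were above 0, with a median of 0.23, and 2 were higher at an unadjusted p under 0.05. Bhlhe40, a repressor of the clock that activity also induces, was at 61.3, 114 and 61.2 CPM and then at 127, 121 and 121 CPM (0.57, edgeR adjusted p = 0.439). Hlf, a clock-driven transcription factor, had a log2 fold change of 0.66 (edgeR adjusted p = 0.642), and 0.35 without pool 13. Of 7 tested genes of cholesterol synthesis 6 were above 0, with a median of 0.11, and 1 was higher at that p. It was Insig1, which holds back cholesterol synthesis, at 115, 111 and 86.4 CPM and then at 159, 154 and 130 CPM (0.43, edgeR adjusted p = 0.442), higher in all 3 older pools. In 3 further lists no member reached that p. Of 12 glutathione and thioredoxin enzymes, of 9 genes of the glucocorticoid and fasting response and of 25 chromatin modifiers that the study names, none had an unadjusted p under 0.05, with medians of −0.061, −0.043 and 0.039.

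The age change of CR was set against that of AL in a fit of the 12 libraries. No gene passed as an interaction of age and diet (0 of 17230, 0%, smallest adjusted p = 0.185 with edgeR, 1054 genes or 6.12% at an unadjusted p under 0.05), while DESeq2 called 6. AL itself had 17 DE genes from 6 to 12 months (0.0987%). Ptgds, the prostaglandin D synthase of meninges and oligodendrocytes, had the smallest p of the named genes. It was at 515, 447 and 359 CPM in 6 m CR and at 348, 391 and 342 CPM in 12 m CR, and went from 187, 214 and 136 CPM to 277, 277 and 421 CPM in AL (difference of changes −1.30, SE 0.252, unadjusted p = 3.27e-05, edgeR adjusted p = 0.185). The level in 6 m CR was above every pool of 6 m AL. The ages in CR overlapped in CPM and were apart with CPM divided by the TMM factors.

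Npc2, a lysosomal carrier of cholesterol, was at 98.5, 93.9 and 71.4 CPM and then at 78.3, 110 and 95.6 CPM in CR, and went from 45.3, 40.8 and 45.3 CPM to 79.5, 85.0 and 98.9 CPM in AL (difference −1.04, SE 0.236, edgeR adjusted p = 0.402). Resp18, a protein of secretory granules, had a log2 fold change of −0.69 in CR and 1.08 in AL (difference −1.82, SE 0.401, edgeR adjusted p = 0.34). On the other side were Arc, at 0.63 in CR and −1.04 in AL (difference 1.64, SE 0.406, edgeR adjusted p = 0.43), Satb1, at 0.80 and −0.32 (difference 1.10, SE 0.292, edgeR adjusted p = 0.462), and the microRNA gene Mir664-2, at 0.46 and −1.52 (difference 1.95, edgeR adjusted p = 0.462). The share of reads not aligned was 29.1% to 36.1% in these AL pools and 40.2% to 43.2% in the CR pools, with no overlap, and its part in the difference was not tested.

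**Figure D4:**
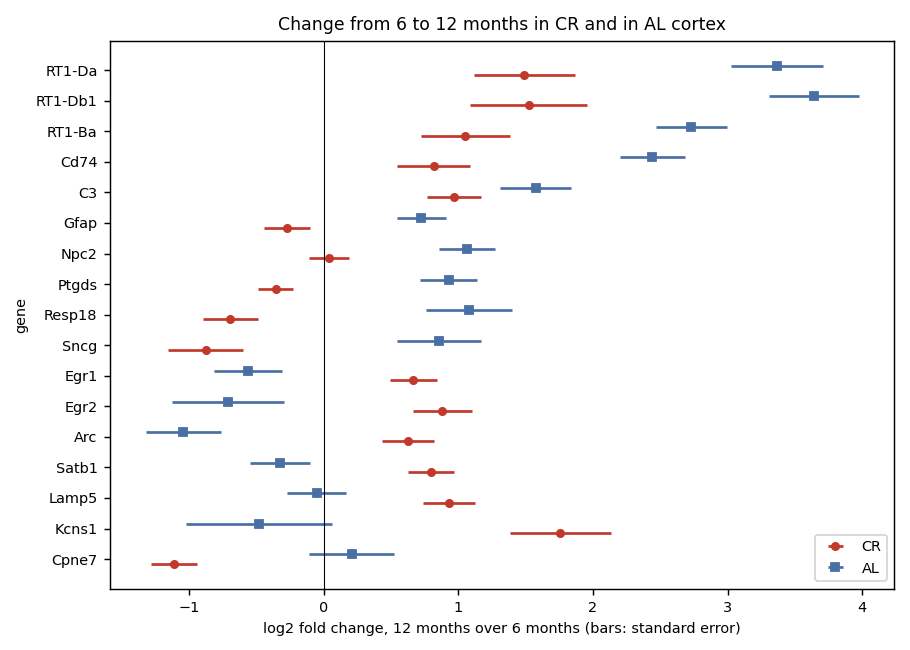
Log2 fold change from 6 to 12 months in CR (red circles) and in AL (blue squares) with its standard error as a bar, for 17 of the genes described. The class II genes lie further right in AL, the immediate early genes lie on opposite sides of 0, and Npc2 is near 0 in CR and at 1.06 in AL.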

How the data were processed

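RNA of the cerebral cortex was pooled from 2 rats per library, depleted of ribosomal RNA and sequenced by the authors as 75-bp forward reads on a SOLiD 5500xl. They mapped the reads with Bowtie to Rnor_5.0 (rn5, Ensembl release 71), leaving out reads that mapped to several places, and counted them with HTSeq-count. What the authors deposited is a table of whole-number counts for each Ensembl gene, not normalized, and the last 5 lines of a file hold reads on no gene. Between 80.5% and 82.9% of the aligned reads of the 6 libraries lay on no gene feature. Leaving out multiply mapping reads lowers genes with near-identical copies. Strand of counting was not given in the sources used here, so reads of antisense partners cannot be told apart.

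A gene entered the test (17230 of 26123) when 3 or more of the 39 libraries held it at 1 CPM or above. The 6 libraries were scaled by TMM and compared with edgeR 4.0.16 in R 4.3.3 (quasi-likelihood test, Benjamini-Hochberg adjustment, threshold 0.05), and the age by diet interaction over 12 libraries. CPM is each count over the reads on genes of its own library, with no TMM factor. Library shares were compared by two-sided exact permutation. As alternatives, DESeq2 1.42.0, edgeR's exact test, RLE scaling, other filters, fits of more groups and leaving out each pool were tried, and leaving out pools 13 and 14 together and CPM divided by the TMM factors were added after seeing the data.

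The comparison and the gene lists were chosen with earlier results of these data known. Names came from the supplementary tables of the study, which name 1669 of the genes tested. The genes named are every called gene with a name (2 at most per direction without one), the 12 per direction with the smallest p among genes whose pools did not overlap, up to 4 of smallest p and up to 2 of highest level in each list, and 3 per direction for the interaction. Promoter sequences and their GRCr8 coordinates are from RefSeq, matched by symbol, and gene positions on Rnor_5.0 were not used here. Columns of the authors' own comparisons were not used.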

Additional observations from a re-analysis of the deposited data

Results flagged for a closer look

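Alb was also high in libraries outside the age comparison of CR, above the highest level of the 9 AL libraries, 28.3 CPM. It was at 254 CPM in pool 39 of 12 m AL+LA, at 122 CPM in pool 35 of 28 m AL+LA, and at 54.0 and 57.3 CPM in pools 22 and 24 of 28 m AL+LA>CR (rats fed ad libitum with α-lipoic acid and then restricted). In 12 m AL+LA and 28 m AL+LA a single pool held it, as 2 of 3 pools did in 12 m CR. The 40 genes chosen as high in pools 13 and 14 summed to 863 CPM in pool 39 and 338 CPM in pool 35. What these pools share was not tested.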

How the results depend on the processing

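The count of 5 DE genes between 6 m CR and 12 m CR was 7 with DESeq2, 5 with RLE scaling and 4 with a filter on the 6 libraries alone. It was 53 with edgeR's exact test, 232 with no filter on low counts, 1 with at least 10 counts in every library (Cpne7), and 0 with CPM taken over every line, with the 4 groups or with all 13 groups in one fit and without pools 13 and 14 together. At an unadjusted p under 0.05 those fits held 759, 705, 1201 and 459 genes. Leaving out 1 pool gave 0 to 198, with 13 without pool 10, 198 without pool 11, 83 without pool 15 and 0 without pool 12, 13 or 14. The interaction count of 0 was 6 with DESeq2, 132 with no filter, 4 with all 13 groups and 0 to 15 leaving out 1 pool, 15 being without pool 11 of 6 m CR. The AL count of 17 was 6 to 31, and 6 without pool 5. The cause was not tested.

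Of the 73 genes checked, 2 changed direction under any alternative, Btg2 (−0.46 to 1.68 leaving out 1 pool, the lowest without pool 13, and −0.68 without pools 13 and 14) and Npc2 (−0.089 to 0.16 leaving out 1 pool, the lowest without pool 14). Alb kept its direction in all of them and lost its call in 9 of 16, DESeq2 among them (adjusted p = 0.0988), and Cpne7 lost it in 7 of 16. No paired analysis was possible because the labels give no pool number to both ages. With about 3 to 4 reads per CPM, genes of a few CPM, such as RT1-Db1 and Kcns1 at 6 months, rest on few reads.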
